A study of Mus musculus with 9 samples.

Results

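The 33 genes described here encode the proteins that fill and cover the red blood cell: the adult globins and the alpha globin chaperone, the receptors for erythropoietin and transferrin, the red cell membrane proteins and the skeleton beneath them, carbonic anhydrases, iron and mitochondrial carriers, and a few erythroid regulators. They were taken by name from 1 gene table. Of the 33, 32 had a row among the 43629 genes of the table and 31 had reads. Ahsp, the alpha globin chaperone, was not analysed here. Icam4, an adhesion protein of red cells, was listed at 0 in all 9 libraries, where 3 reads, the count a 0 still allows, correspond to between 2.56 and 3.52 normalised reads.

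Bone marrow cells that display c-Kit, or CD117, which is the receptor for stem cell factor on early blood cells, were selected with magnetic beads from C57BL/6 mice, and their total RNA was sequenced. Cbfb+/MYH11 mice carry the Cbfb-MYH11 fusion of leukaemia with inversion 16 on 1 allele, which joins the Runx partner Cbfb to the tail of a smooth muscle myosin. Cbfb+/mDE mice carry a form of this fusion mutated in the multimerization domain of the myosin tail, although the labels themselves do not expand mDE. WT mice carry neither. Each genotype had 3 libraries, and mice of all 3 genotypes, WT included, received pIpC, a double-stranded RNA that induces interferon. The labels name no Cre driver, age or sex, and do not say whether a library is 1 animal or a pool, so the p-values measure the spread between these libraries, which may be partly technical.

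Red cell production starts from c-Kit-positive progenitors that depend on stem cell factor and then on erythropoietin. As the cells mature they lose c-Kit, take up iron through the transferrin receptor, make haem in the mitochondria and fill with haemoglobin, a tetramer of alpha and beta globin chains. Their membrane is held by a net of spectrin, tied to the band 3 and Rh complexes through ankyrin and protein 4.2, and to short actin filaments through protein 4.1, adducin, dematin and tropomodulin. Several of these genes are also used by other cells, such as Slc40a1 in macrophages, Nfe2 in megakaryocytes and Tfrc in dividing cells of many kinds.

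The libraries held between 39300366 and 50073097 reads. Myh11 averaged 196 ± 21.3 normalised reads in Cbfb+/MYH11, 37.9 ± 8.12 in Cbfb+/mDE and 7.02 ± 2.06 in WT (SD, n = 3 each). Kit averaged 3538 ± 321 normalised reads in Cbfb+/MYH11, 7256 ± 329 in Cbfb+/mDE and 7504 ± 253 in WT. Reads of 9 late neutrophil markers, which include S100a8, S100a9 and Ltf, took between 0.362% and 1.67% of each Cbfb+/MYH11 library, against between 10.6% and 13.2% in Cbfb+/mDE and between 9.51% and 11.1% in WT. Reads of 9 mast cell and basophil markers took between 0.189% and 0.295% of the Cbfb+/MYH11 libraries, against between 0.0189% and 0.0302% in Cbfb+/mDE and between 0.0247% and 0.0312% in WT. Reads of 10 macrophage markers took between 0.0699% and 0.108% in Cbfb+/MYH11, against between 0.0434% and 0.0534% in Cbfb+/mDE and between 0.0499% and 0.0580% in WT. The erythroid markers were present in all libraries: Klf1, a master regulator of red cell genes, averaged 2837 ± 340 normalised reads in Cbfb+/MYH11, 2933 ± 627 in Cbfb+/mDE and 2929 ± 315 in WT. Fewer erythroid cells and less RNA per erythroid cell cannot be told apart in RNA of mixed cells.

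In Cbfb+/MYH11 the erythroid genes did not move as 1 block. All 4 adult globins rose, by between 3.33-fold and 9.51-fold over WT, as did the spectrin gene Sptb and the tropomodulin gene Tmod1. The water channel gene Aqp1, the adducin gene Add2, the iron exporter gene Slc40a1, the carbonic anhydrase gene Car1 and Trim10 fell. Band 3 (Slc4a1), ankyrin 1 (Ank1) and the transferrin receptor (Tfrc) did not pass the test. Of the 31 genes tested, 11 were higher in Cbfb+/MYH11 than in WT at an adjusted p under 0.05, where 32.0% of all 15948 genes tested were called higher. A further 12 were lower, where 27.8% of all genes were called lower, and 8 were not called. In all 23 of 31 were called, against 59.8% of all genes, and the libraries of these genotypes did not overlap for 27 of 31, against 68.7%. The test was limma-trend on log2 of the normalised value plus 1, and p-values were adjusted across those 15948 genes by the method of Benjamini and Hochberg. The share of the erythroid genes that rose lay near that among all genes. Past 2-fold, 7 were higher, against 14.5% of all genes, and 5 were lower, against 8.69%. The median log2 fold change was 0.09 over the 31 genes and 0.02 over all genes tested.

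**Figure D1:**
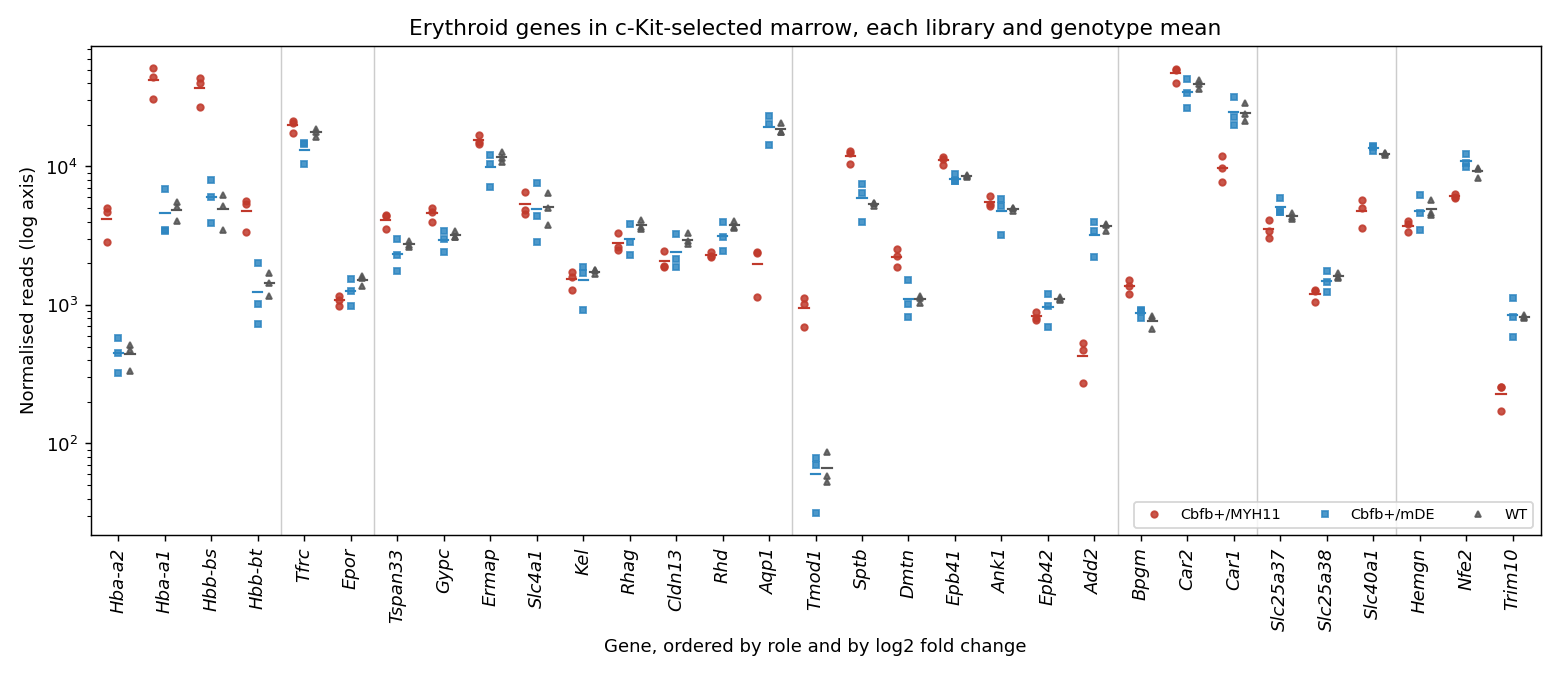
Normalised reads (log axis) of the 31 erythroid genes with reads, grouped by role, in each library (points) with genotype means (short lines), for Cbfb+/MYH11 (circles), Cbfb+/mDE (squares) and WT (triangles). The globins, Sptb and Tmod1 lie above WT in all 3 Cbfb+/MYH11 libraries, Aqp1, Add2, Slc40a1, Car1 and Trim10 lie below it, and the Cbfb+/mDE points lie around WT with a wider scatter.

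The promoters of some of the genes that moved furthest show what sequence lies upstream of them. The lines below give the 250 bases before the RefSeq start (GRCm38.p6), read 5′ to 3′ on the gene's own strand. Hba-a2 and Sptb stand for the genes that rose, and Add2, Aqp1 and Trim10 for those that fell. Capitals mark matches, on either strand, to letters of factor motifs or of general promoter motifs. The factor letters were AGATAA or TGATAA for GATA factors, CCNCNCCC for KLF factors, TGAGTCA or TGACTCA for NF-E2, and TGTGGT or TGCGGT for RUNX factors. The general letters were TATAAA for the TATA box, and CCAAT. The KLF letters are loose and match 45.9% of all mouse promoter windows of that length. Neighbouring KLF matches overlap in the Sptb and Add2 windows and run together there.
Hba-a2, chr11:32296242-32296491, plus strand: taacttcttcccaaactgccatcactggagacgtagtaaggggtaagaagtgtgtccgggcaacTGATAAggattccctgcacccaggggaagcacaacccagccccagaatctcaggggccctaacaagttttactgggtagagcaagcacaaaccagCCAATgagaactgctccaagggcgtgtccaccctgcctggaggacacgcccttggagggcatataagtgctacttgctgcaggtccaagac
Sptb, chr12:76710548-76710797, minus strand: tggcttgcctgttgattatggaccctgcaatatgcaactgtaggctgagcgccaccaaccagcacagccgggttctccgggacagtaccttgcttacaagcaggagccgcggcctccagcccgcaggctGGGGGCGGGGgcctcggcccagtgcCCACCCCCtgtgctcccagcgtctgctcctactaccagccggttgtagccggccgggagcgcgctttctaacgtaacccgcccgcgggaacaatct
Add2, chr6:86028431-86028680, plus strand: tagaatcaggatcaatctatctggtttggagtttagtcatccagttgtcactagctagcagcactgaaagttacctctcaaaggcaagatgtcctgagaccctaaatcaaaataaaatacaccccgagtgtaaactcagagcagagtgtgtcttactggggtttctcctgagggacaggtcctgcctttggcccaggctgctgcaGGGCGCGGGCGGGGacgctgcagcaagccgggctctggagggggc
Aqp1, chr6:55336049-55336298, plus strand: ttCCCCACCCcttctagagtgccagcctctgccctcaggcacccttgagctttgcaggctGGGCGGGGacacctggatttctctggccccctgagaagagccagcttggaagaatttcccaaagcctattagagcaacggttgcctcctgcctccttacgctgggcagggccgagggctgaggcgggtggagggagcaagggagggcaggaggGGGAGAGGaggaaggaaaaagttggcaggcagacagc
Trim10, chr17:36869324-36869573, plus strand: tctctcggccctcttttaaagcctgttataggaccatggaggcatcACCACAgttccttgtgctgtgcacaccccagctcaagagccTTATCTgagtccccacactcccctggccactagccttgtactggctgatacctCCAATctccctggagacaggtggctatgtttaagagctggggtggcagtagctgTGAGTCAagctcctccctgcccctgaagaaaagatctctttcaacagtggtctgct

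RefSeq promoters were matched for 22 of the 33 genes, giving 25 windows. GATA letters were found in 48.0% of them, against 16.6% of all 32851 mouse promoter windows of that length, and KLF letters in 64.0% against 45.9%. CCAAT letters were in 56.0% of the erythroid windows and 33.8% of all. NF-E2 letters were in 2 of the 25 erythroid windows and in 4.46% of all, RUNX letters in 5 of the 25 and in 18.6%, and TATA letters in 4 of the 25 and in 12.4%. CCAAT was found in 9 of 11 windows of genes that rose in Cbfb+/MYH11, of which 3 belong to Epb41, and in 2 of 7 windows of genes that fell. Those 9 also include the windows of the related globin genes Hba-a1, Hba-a2, Hbb-bs and Hbb-bt, while Sptb and Tmod1 have no CCAAT match. GATA letters were found in 3 of those 11 windows and in 4 of those 7. RUNX letters, those of the factors that bind with Cbfb, were found in 1 of the 11 and in 2 of the 7. In the lines above, Hba-a2 has a GATA match that begins 186 bases before the start and a CCAAT match 91 bases before it. Trim10 has a RUNX match 204, a GATA match 163, a CCAAT match 110 and an NF-E2 match 56 bases before the start. Sptb, Add2 and Aqp1 have KLF matches and none of the other letters in these windows. A match is a run of letters only, and binding was not measured.

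The adult globin genes code for the chains of haemoglobin. Hba-a1, an alpha globin gene on chr11:32283511-32284465, had 44007, 30916 and 51271 normalised reads in the 3 Cbfb+/MYH11 libraries, 6873, 3453 and 3437 in Cbfb+/mDE and 5084, 4020 and 5558 in WT. Hba-a2, the second alpha globin gene on chr11:32296489-32297298, had 4706, 2861 and 5026 normalised reads in Cbfb+/MYH11, 582, 324 and 447 in Cbfb+/mDE and 473, 333 and 518 in WT. All Cbfb+/MYH11 libraries lay above every library of the other genotypes for both genes, and Cbfb+/mDE and WT overlapped. Hbb-bs, an adult beta globin gene of the C57BL/6 haplotype on chr7:103826534-103828096, had 40283, 26745 and 43283 normalised reads in Cbfb+/MYH11, 8027, 3938 and 5976 in Cbfb+/mDE and 5148, 3456 and 6179 in WT. Hbb-bt, its neighbour on chr7:103812524-103813996, had 5673, 3379 and 5329 normalised reads in Cbfb+/MYH11, 2011, 1013 and 729 in Cbfb+/mDE and 1452, 1169 and 1701 in WT. Again Cbfb+/MYH11 was the highest of the 3 genotypes without overlap, and its replicate 2 was the lowest of its own genotype for all 4 globins. That replicate was also the lowest of the 3 for 20 of the 31 erythroid genes and for 41.1% of all genes tested.

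Against WT, the log2 fold change in Cbfb+/MYH11 was 3.23 ± 0.27 (SE) for Hba-a2 (adjusted p = 9.70e-06), 3.09 ± 0.28 for Hba-a1 (1.54e-05), 2.91 ± 0.30 for Hbb-bs (3.07e-05) and 1.71 ± 0.34 for Hbb-bt (0.00197). In means these were 9.51-fold, 8.61-fold, 7.46-fold and 3.33-fold. Against Cbfb+/mDE the 4 genes rose by between 2.03 (Hbb-bt) and 3.25 (Hba-a1) on the log2 scale. None of the 4 was called between Cbfb+/mDE and WT, where log2 fold changes ran between -0.32 (Hbb-bt) and 0.26 (Hbb-bs), with SEs of 0.27 to 0.34. Globin reads took 0.243%, 0.167% and 0.278% of the Cbfb+/MYH11 libraries, 0.0394%, 0.0194% and 0.0218% of the Cbfb+/mDE libraries and 0.0281%, 0.0197% and 0.0302% of the WT libraries. In the same order the mast cell and basophil markers took 0.276%, 0.189% and 0.295% of the Cbfb+/MYH11 libraries, with replicate 2 lowest in both sums. Replicate 2 was also lowest in the sums of macrophage, megakaryocyte and endothelium markers. It was highest in those of late neutrophil, B cell and T cell markers. The part of other cell types in the globin rise was not tested.

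The globin copies are hard to separate by short reads. Of all 50-base windows of the Hba-a2 transcript, 86.9% also occur in Hba-a1, and of those of Hba-a1, 67.5% occur in Hba-a2. For the beta pair, 65.8% of the windows of Hbb-bs occur in Hbb-bt and 58.3% of those of Hbb-bt in Hbb-bs. How reads shared by copies were divided is not given in the sources used here, so the split within a pair is uncertain while the sum of a pair is less so. As counted, Hbb-bt took between 10.96% and 12.3% of the adult beta globin reads in Cbfb+/MYH11, 20.03%, 20.5% and 10.9% in Cbfb+/mDE and between 21.6% and 25.3% in WT. The Cbfb+/MYH11 libraries lay below all WT libraries, and Cbfb+/mDE replicate 3 lay with Cbfb+/MYH11. The ratio of alpha to beta globin reads was 1.06, 1.12 and 1.16 in Cbfb+/MYH11, 0.743, 0.763 and 0.579 in Cbfb+/mDE and 0.842, 0.941 and 0.771 in WT. This ratio did not overlap between any pair of genotypes. With 3 libraries against 3 the exact two-sided permutation test gives 0.1 at the smallest, so none of the 27 ratio comparisons given (9 ratios, 3 genotype pairs) could pass 0.05.

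**Figure D2:**
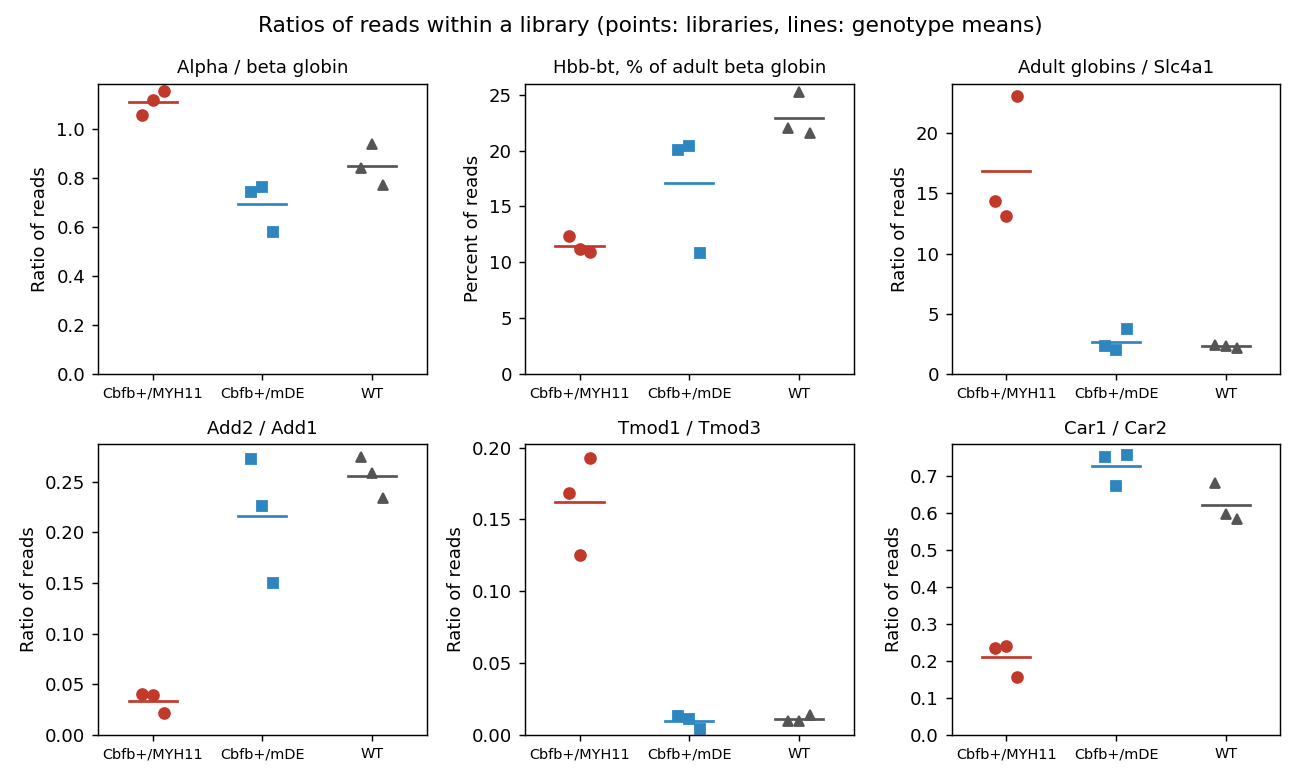
Ratios of reads of related genes within each library (points) with genotype means (lines) for Cbfb+/MYH11, Cbfb+/mDE and WT. Cbfb+/MYH11 stands apart from WT in all 6 panels, with means of 16.8 against 2.32 for the adult globins over Slc4a1 and 0.162 against 0.0110 for Tmod1 over Tmod3. The panels come from 9 ratios, chosen after values were seen. Among those not drawn, the Hba-a2 share of alpha globin reads and Slc25a37 over Slc25a38 overlapped between Cbfb+/MYH11 and WT.

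Of the receptors, Epor fell and Tfrc was not called in Cbfb+/MYH11 against WT. Epor, the erythropoietin receptor, had 1168, 987 and 1082 normalised reads in Cbfb+/MYH11, 1532, 1263 and 989 in Cbfb+/mDE and 1625, 1570 and 1361 in WT. It fell in Cbfb+/MYH11 against WT by 0.49 ± 0.15 on the log2 scale (adjusted p = 0.0160), with no overlap between these genotypes. The adjusted p was between 0.0507 and 0.0544 without Cbfb+/MYH11 replicate 2, WT replicate 1 or WT replicate 2. Tfrc, the transferrin receptor, had 20751, 17505 and 21262 normalised reads in Cbfb+/MYH11, 14884, 14430 and 10355 in Cbfb+/mDE and 17830, 18630 and 16434 in WT. It rose in Cbfb+/MYH11 against Cbfb+/mDE, by 0.60 ± 0.14 (adjusted p = 0.00449), but was not called against WT (log2 fold change 0.17 ± 0.14, adjusted p = 0.317). All Cbfb+/mDE libraries lay below all WT libraries for Tfrc.

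Among the membrane proteins, band 3 was not called and the water channel fell furthest. Slc4a1 encodes band 3, the anion exchanger that is the most abundant protein of the red cell membrane. It had 6593, 4880 and 4548 normalised reads in Cbfb+/MYH11, 7628, 4360 and 2846 in Cbfb+/mDE and 5040, 3789 and 6386 in WT. The genotypes overlapped throughout, and the log2 fold change of Cbfb+/MYH11 against WT was 0.09 ± 0.33 (adjusted p = 0.832). Its sign turned without Cbfb+/MYH11 replicate 1 (-0.07) or WT replicate 2 (-0.11). Globin reads per Slc4a1 read were 14.4, 13.1 and 23.1 in Cbfb+/MYH11, 2.29, 2.001 and 3.72 in Cbfb+/mDE and 2.41, 2.37 and 2.19 in WT.

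Aqp1, the red cell water channel on chr6:55336432-55348555, had 2426, 2383 and 1146 normalised reads in Cbfb+/MYH11, 23151, 20396 and 14346 in Cbfb+/mDE and 20677, 17662 and 17766 in WT. Each Cbfb+/MYH11 library lay far below every other library. Aqp1 fell by 3.31 ± 0.28 on the log2 scale against WT (adjusted p = 9.92e-06; 9.42-fold lower in means) and by 3.33 ± 0.28 against Cbfb+/mDE (1.10e-05). The other membrane protein genes differed by less than 2-fold between Cbfb+/MYH11 and WT. Gypc, glycophorin C, which links protein 4.1 to the membrane, rose by 0.51 ± 0.13 (adjusted p = 0.00742), and the tetraspanin gene Tspan33 by 0.57 ± 0.17 (0.0154; 0.0544 without Cbfb+/MYH11 replicate 1). Rhd, of the Rh blood group complex, fell by 0.71 ± 0.14 (0.00204), and the claudin gene Cldn13 by 0.52 ± 0.19 (0.0380). The Cldn13 call was lost without Cbfb+/MYH11 replicate 2 or 3 or any 1 WT library, with adjusted p between 0.0554 and 0.114. Rhag, the partner of Rhd, had a log2 fold change of -0.43 ± 0.17 (adjusted p = 0.0559), Ermap, an erythroid butyrophilin-like protein, one of 0.41 ± 0.17 (0.0627), and Kel, the Kell antigen, one of -0.20 ± 0.23 (0.489). Rhag and Ermap passed 0.05 in some alternatives, among them the fit without Cbfb+/mDE replicate 3, at 0.0234 for Rhag and 0.00393 for Ermap.

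The skeleton genes split most widely. Sptb, the red cell beta spectrin on chr12:76580488-76710547, had 12455, 10411 and 12841 normalised reads in Cbfb+/MYH11, 6446, 7424 and 3959 in Cbfb+/mDE and 5414, 5157 and 5475 in WT. Tmod1, which caps the short actin filaments, on chr4:46038935-46116032, had 1018, 697 and 1120 normalised reads in Cbfb+/MYH11, 78.3, 70.2 and 31.7 in Cbfb+/mDE and 53.1, 58.5 and 86.9 in WT. Dmtn, dematin, which bundles actin, had 2277, 1882 and 2546 normalised reads in Cbfb+/MYH11, 1511, 1009 and 821 in Cbfb+/mDE and 1167, 1036 and 1124 in WT. For all 3 genes every Cbfb+/MYH11 library lay above every other library, and Cbfb+/mDE overlapped WT. Against WT, Tmod1 rose by 3.82 ± 0.35 on the log2 scale (adjusted p = 1.55e-05; 14.3-fold in means), Sptb by 1.15 ± 0.20 (0.000777) and Dmtn by 1.001 ± 0.20 (0.00185). Epb41, protein 4.1, rose by 0.38 ± 0.07 (0.000837).

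Add2, beta adducin, which caps actin and joins it to spectrin, lies on chr6:86028681-86124409. It had 534, 473 and 271 normalised reads in Cbfb+/MYH11, 4006, 3404 and 2222 in Cbfb+/mDE and 3869, 3759 and 3447 in WT. The highest Cbfb+/MYH11 library was far below the lowest of the other genotypes. Add2 fell by 3.17 ± 0.26 on the log2 scale against WT (adjusted p = 9.46e-06; 8.66-fold lower in means) and by 2.93 ± 0.26 against Cbfb+/mDE (1.70e-05). Epb42, protein 4.2, fell against WT by 0.43 ± 0.17 (0.0487), and leaving out any 1 of the Cbfb+/MYH11 or WT libraries, or Cbfb+/mDE replicate 2, gave an adjusted p between 0.0648 and 0.119. Ank1, ankyrin 1, which ties spectrin to band 3, averaged 5557 ± 465 normalised reads in Cbfb+/MYH11, 4736 ± 1367 in Cbfb+/mDE and 4941 ± 122 in WT (SD, n = 3 each). Its log2 fold change against WT was 0.17 ± 0.18 (0.458).

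Add2 and Tmod1 each have a more widely expressed relative. Add1, the alpha adducin found in most tissues, averaged 12615 ± 580 normalised reads in Cbfb+/MYH11, 14857 ± 202 in Cbfb+/mDE and 14466 ± 329 in WT, and the ratio of Add2 to Add1 reads averaged 0.0337 ± 0.0104, 0.216 ± 0.0616 and 0.255 ± 0.0205 in those genotypes. Tmod3, the widely expressed tropomodulin, averaged 5801 ± 241, 6524 ± 709 and 5972 ± 431 normalised reads in Cbfb+/MYH11, Cbfb+/mDE and WT (SD, n = 3 each). Whether the counting used strand is not given in the sources used here. Sptb shares exon bases with Plekhg3 on the other strand (log2 fold change 0.22 ± 0.09, adjusted p = 0.0513, Cbfb+/MYH11 against WT), and Tmod1 with Tstd2, which rose by 0.26 ± 0.07 (0.0146).

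**Figure D3:**
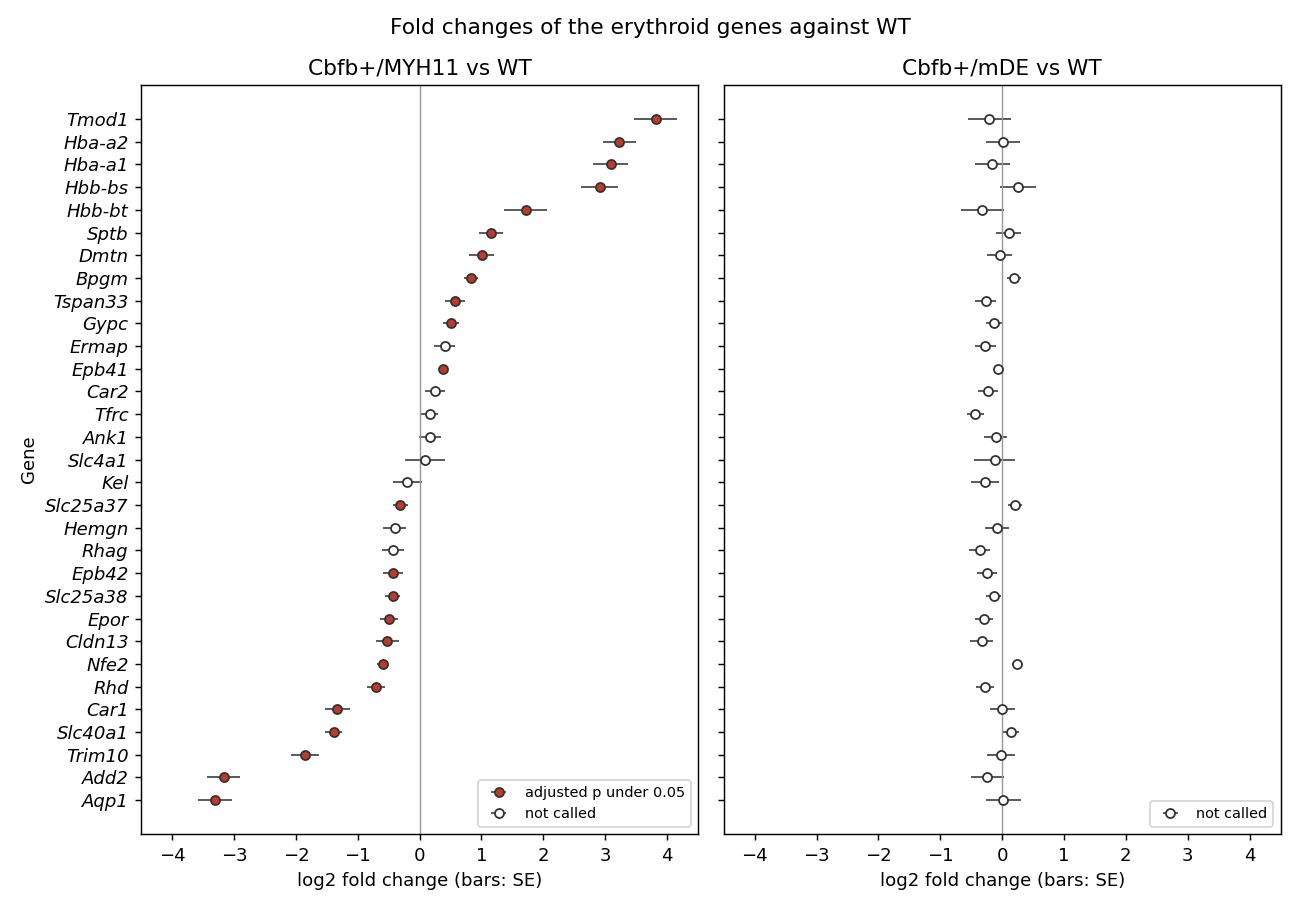
Log2 fold changes (points, with SE bars) of the 31 erythroid genes in Cbfb+/MYH11 against WT (left) and in Cbfb+/mDE against WT (right), ordered by the left panel; filled points have an adjusted p under 0.05. On the left 11 genes are filled above 0 and 12 below it, between -3.31 (Aqp1) and 3.82 (Tmod1); on the right none is filled.

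Of the 2 cytosolic carbonic anhydrases, which interconvert carbon dioxide and bicarbonate, Car1 fell and Car2 was not called in Cbfb+/MYH11 against WT. Car1 had 11976, 9706 and 7712 normalised reads in Cbfb+/MYH11, 31945, 22763 and 19895 in Cbfb+/mDE and 28606, 23733 and 21122 in WT. All Cbfb+/MYH11 libraries were lower than all others, and Car1 fell by 1.33 ± 0.20 on the log2 scale against WT (adjusted p = 0.000389; 2.499-fold lower in means). Car2 averaged 46965 ± 5842 normalised reads in Cbfb+/MYH11, 34253 ± 8087 in Cbfb+/mDE and 39292 ± 2905 in WT (SD, n = 3 each), was not called against WT (0.25 ± 0.16, adjusted p = 0.210) and rose against Cbfb+/mDE by 0.47 ± 0.16 (0.0328). That Car2 call was lost without Cbfb+/MYH11 replicate 1 or 3 or Cbfb+/mDE replicate 2 or 3, at adjusted p between 0.0705 and 0.102. The ratio of Car1 to Car2 reads was 0.235, 0.241 and 0.155 in Cbfb+/MYH11, 0.751, 0.672 and 0.755 in Cbfb+/mDE and 0.682, 0.597 and 0.584 in WT. Bpgm makes bisphosphoglycerate, which lowers the oxygen affinity of haemoglobin. It rose by 0.83 ± 0.11 on the log2 scale against WT (0.000178).

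All 3 carriers fell in Cbfb+/MYH11. Slc40a1, ferroportin, the iron exporter, which macrophages and erythroid cells both make, had 5753, 4988 and 3626 normalised reads in Cbfb+/MYH11, 13888, 12922 and 13953 in Cbfb+/mDE and 12017, 12412 and 12581 in WT. The Cbfb+/MYH11 libraries were the lowest, and all Cbfb+/mDE libraries lay above all WT libraries. Slc40a1 fell by 1.39 ± 0.14 on the log2 scale against WT (adjusted p = 2.69e-05; 2.58-fold lower in means), and it was not called between Cbfb+/mDE and WT (0.14 ± 0.14, 0.609). Of 10 macrophage markers, 9 rose in Cbfb+/MYH11 against WT, where 32.0% of all genes rose, and 1, Vcam1, fell; their part in the level of Slc40a1 was not tested. The mitochondrial carriers fell by less, Slc25a38, the glycine carrier for haem synthesis, by 0.44 ± 0.12 (0.0117) and Slc25a37, mitoferrin 1, which brings in iron, by 0.31 ± 0.12 (0.0473). For Slc25a37 the call was lost under 9 of 21 alternatives, among them leaving out any 1 WT library, Cbfb+/MYH11 replicate 1 or 3 or Cbfb+/mDE replicate 2 or 3, with adjusted p between 0.0511 and 0.163.

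Of the regulators, Trim10, an erythroid tripartite motif protein on chr17:36869574-36877833, had 258, 173 and 258 normalised reads in Cbfb+/MYH11, 1114, 823 and 584 in Cbfb+/mDE and 847, 802 and 816 in WT. All Cbfb+/MYH11 libraries lay below all others, and Trim10 fell by 1.86 ± 0.23 on the log2 scale against WT (adjusted p = 9.44e-05; 3.58-fold lower in means). Nfe2, the NF-E2 subunit that drives globin and platelet genes, fell by 0.60 ± 0.09 against WT (0.000334) and by 0.84 ± 0.09 against Cbfb+/mDE (4.36e-05). Hemgn, hemogen, a nuclear protein of blood progenitors, was not called (-0.40 ± 0.19, 0.0937). It passed 0.05 without Cbfb+/mDE replicate 1 (0.0270) or replicate 3 (0.0308).

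Per kilobase of exon the order of the genes also differed. In WT the highest was Car1, at 19621 ± 3044 normalised reads per kilobase, followed by Car2 at 16223 ± 1199, Aqp1 at 7119 ± 652, Hbb-bs at 6416 ± 1790 and Hba-a1 at 6019 ± 970 (SD, n = 3 each). The ranges of Car1 and Car2 overlapped in WT, as did those of Aqp1, Hbb-bs and Hba-a1. In Cbfb+/MYH11 the highest were Hba-a1 at 51804 ± 12704 and Hbb-bs at 47878 ± 11473 normalised reads per kilobase, whose ranges overlapped, then Car2 at 19391 ± 2412 and Car1 at 7851 ± 1709. Aqp1 stood 18th of the 32 genes there, at 756 ± 277, against 4th in Cbfb+/mDE and 3rd in WT. The lowest gene with reads was Add2 in Cbfb+/MYH11, at 42.0 ± 13.6 normalised reads per kilobase, and Tmod1 in the other genotypes, at 15.2 ± 6.30 in Cbfb+/mDE and 16.8 ± 4.604 in WT.

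In Cbfb+/mDE against WT, 0 of the 31 genes were called by limma-trend, where 1.24% of all genes were called, a count of 198 that dropped to 31 without WT replicate 2 and 38 without WT replicate 3. edgeR's quasi-likelihood test also called 0, and the DESeq2 Wald test called 1, Tfrc, at a log2 fold change of -0.42 (adjusted p = 0.0479). At an unadjusted p under 0.05 there were 2, against 19.8% of all genes: Tfrc, with a log2 fold change of -0.43 ± 0.14 (adjusted p = 0.142), and Nfe2, with 0.24 ± 0.09 (0.184). The libraries of these genotypes did not overlap for 4 of 31 genes, against 26.1% of all genes, with Tfrc lower and Slc40a1, Slc25a37 and Nfe2 higher in Cbfb+/mDE. All 31 log2 fold changes lay between -0.43 (Tfrc) and 0.26 (Hbb-bs), with a median of -0.13.

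The erythroid genes scattered most among the Cbfb+/mDE libraries. Replicate 3 of this genotype was the lowest of the 3 for 26 of 31 genes, against 32.0% of all genes tested, and replicate 1 the highest for 27 of 31, against 30.4%. Relative to the WT mean of each gene, the median log2 value over the 31 genes was 0.17 in Cbfb+/mDE replicate 1, -0.14 in replicate 2 and -0.51 in replicate 3, and it lay between -0.04 and 0.06 in the WT libraries. The median coefficient of variation of the erythroid genes was 14.9% in Cbfb+/MYH11, 26.0% in Cbfb+/mDE and 7.39% in WT, against 9.27%, 10.2% and 8.19% over all genes tested in the same order of genotypes. Nfe2 and Slc40a1 were the 2 genes with their highest value in Cbfb+/mDE replicate 3, where Nfe2 had 12280 normalised reads, against 9914 and 10577 in replicates 1 and 2. The late neutrophil markers took 13.2% of that replicate 3 library and 10.8% and 10.6% of the others, and their part in its lower erythroid values was not tested.

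**Figure D4:**
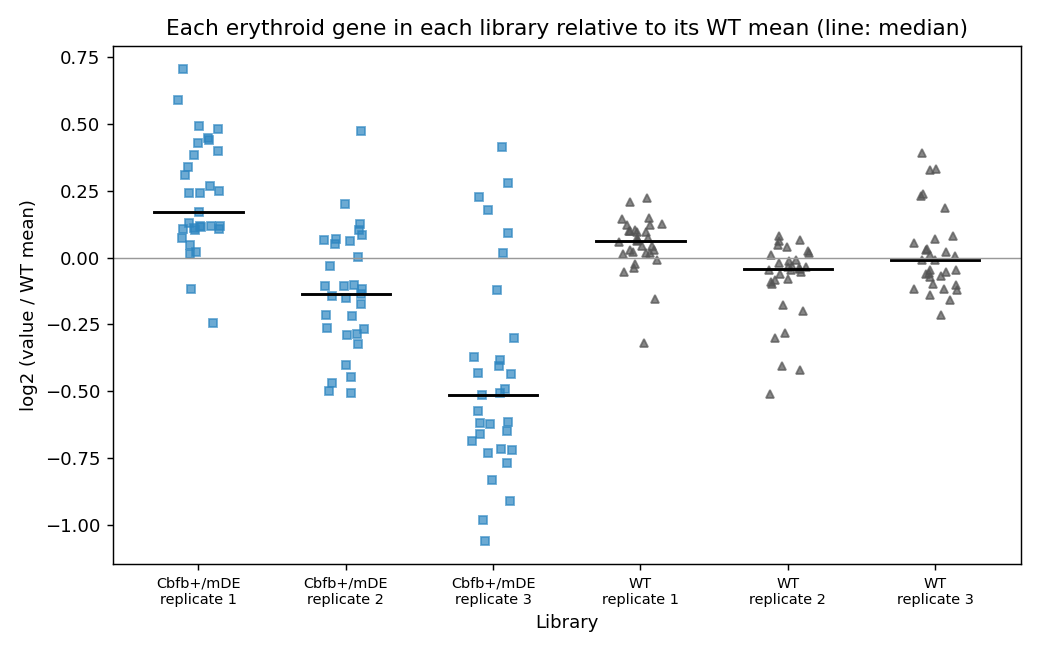
Log2 ratio of each of the 31 erythroid genes in a library to its WT mean, for the 3 Cbfb+/mDE libraries and the 3 WT libraries (points: genes, lines: medians). The medians of the Cbfb+/mDE libraries are spread between -0.51 and 0.17, those of the WT libraries between -0.04 and 0.06.

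In Cbfb+/MYH11 against Cbfb+/mDE, 14 of 31 genes were higher, against 29.6% of all genes, 8 were lower, against 26.0%, and 9 were not called. Together 22 were called, against 55.6% of all genes, and the libraries did not overlap for 21 of 31, against 62.2%. The Cbfb+/MYH11 libraries take part in both comparisons, so these calls are no second test of those against WT. Without Cbfb+/mDE replicate 3 the counts were 13 higher and 12 lower. Tmod1 showed the largest rise of the 31 here, at 4.03 ± 0.35 on the log2 scale (adjusted p = 1.29e-05), and Aqp1 the largest fall. Ermap was also called here, at 0.68 ± 0.17 (0.00720), with no overlap between the libraries. The log2 fold change of Rhd was -0.43 ± 0.14 (0.0271), and it missed 0.05 without Cbfb+/MYH11 replicate 2 or 3 or without Cbfb+/mDE replicate 1 or 2, at adjusted p between 0.0556 and 0.0666.

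Other red cell genes, in lists chosen with earlier results of these data known, also included genes called in both directions in Cbfb+/MYH11 against WT. Of the embryonic and theta globins, Hbq1b, a theta globin gene, had 296, 211 and 362 normalised reads in Cbfb+/MYH11, 24.3, 10.8 and 8.76 in Cbfb+/mDE and 26.1, 16.3 and 27.0 in WT, and rose by 3.59 ± 0.38 on the log2 scale (adjusted p = 4.01e-05). The embryonic globins Hba-x, Hbb-y and Hbb-bh1 and the theta globin Hbq1a were too low to be tested. Of 20 genes of haem synthesis and iron handling, 10 rose and 5 fell, against 32.0% and 27.8% of all genes, with a median log2 fold change of 0.18. Alas2, the erythroid enzyme that starts haem synthesis, averaged 10524 ± 2377 normalised reads in Cbfb+/MYH11, 671 ± 312 in Cbfb+/mDE and 686 ± 206 in WT (SD, n = 3 each) and rose by 3.96 ± 0.32 (7.86e-06). The iron regulator Hfe rose by 1.78 ± 0.17 (2.05e-05), while the haem synthesis enzyme Uros fell by 1.39 ± 0.15 (3.97e-05) and Tmem14c, a mitochondrial porphyrin transporter, by 0.92 ± 0.08 (1.70e-05).

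Of 18 transcriptional regulators of red cells, 10 rose and 4 fell in Cbfb+/MYH11 against WT, where 32.0% of all genes rose and 27.8% fell, with a median log2 fold change of 0.35. Gata2, the GATA factor of early progenitors and mast cells, averaged 16133 ± 2681 normalised reads in Cbfb+/MYH11, 1428 ± 188 in Cbfb+/mDE and 1074 ± 183 in WT (SD, n = 3 each), and rose by 3.91 ± 0.16 (adjusted p = 2.45e-07). Sox6, which with Bcl11a silences embryonic globins, rose by 3.62 ± 0.20 (1.11e-06) and Foxo3 by 0.89 ± 0.08 (1.14e-05). Gata1, which drives erythroid, megakaryocyte and mast cell genes, averaged 6252 ± 1202 normalised reads in Cbfb+/MYH11, 3091 ± 678 in Cbfb+/mDE and 3369 ± 305 in WT, and rose by 0.88 ± 0.17 (0.00187). Its cofactor Zfpm1 (FOG1) fell by 1.89 ± 0.17 (1.44e-05), and Klf1 was not called (-0.05 ± 0.15, 0.805). Of 8 mast cell and basophil markers tested, 6 rose and 2 fell, beside those same shares of all genes. Among the markers of this list, Mcpt1, a mast cell protease, averaged 18665 ± 2317 normalised reads in Cbfb+/MYH11, 1.40 ± 0.693 in Cbfb+/mDE and 7.07 ± 11.4 in WT, and Prss34, a basophil protease, averaged 793 ± 35.5, 4649 ± 939 and 5647 ± 354 in those genotypes. Their part in the levels of Gata1 and Gata2 was not tested.

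Of 21 further genes of the membrane and its skeleton, 5 rose and 10 fell in Cbfb+/MYH11 against WT, where the shares of all genes were 32.0% and 27.8%, with a median log2 fold change of -0.13. The heat stable antigen gene Cd24a fell by 2.02 ± 0.17 on the log2 scale (adjusted p = 1.14e-05) and Xk, which binds Kel in the membrane, by 1.13 ± 0.10 (1.31e-05), while the glucose transporter gene Slc2a1 rose by 2.13 ± 0.15 (3.95e-06). Of 19 genes of the late red cell, 10 rose and 5 fell, beside the same 32.0% and 27.8% of all genes, with a median of 0.24. The glycine transporter gene Slc6a9 rose by 3.53 ± 0.23 (2.56e-06), the poly(A) polymerase gene Tent5c by 2.09 ± 0.16 (5.33e-06), catalase (Cat) by 1.12 ± 0.08 (4.70e-06) and the nuclear exporter gene Xpo7 by 0.79 ± 0.06 (6.56e-06). Of the 5 genes of this list that fell, Btnl10, Pklr, Alox15 and Nxpe2, named after their values were seen, had log2 fold changes between -3.99 and -3.40. In Cbfb+/mDE against WT, limma-trend called 0 genes of these 5 lists, with 0, 3, 4, 5 and 3 of the 1, 20, 18, 21 and 19 tested at an unadjusted p under 0.05, where 1.24% of all genes were called and 19.8% had such a p.

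**Figure D5:**
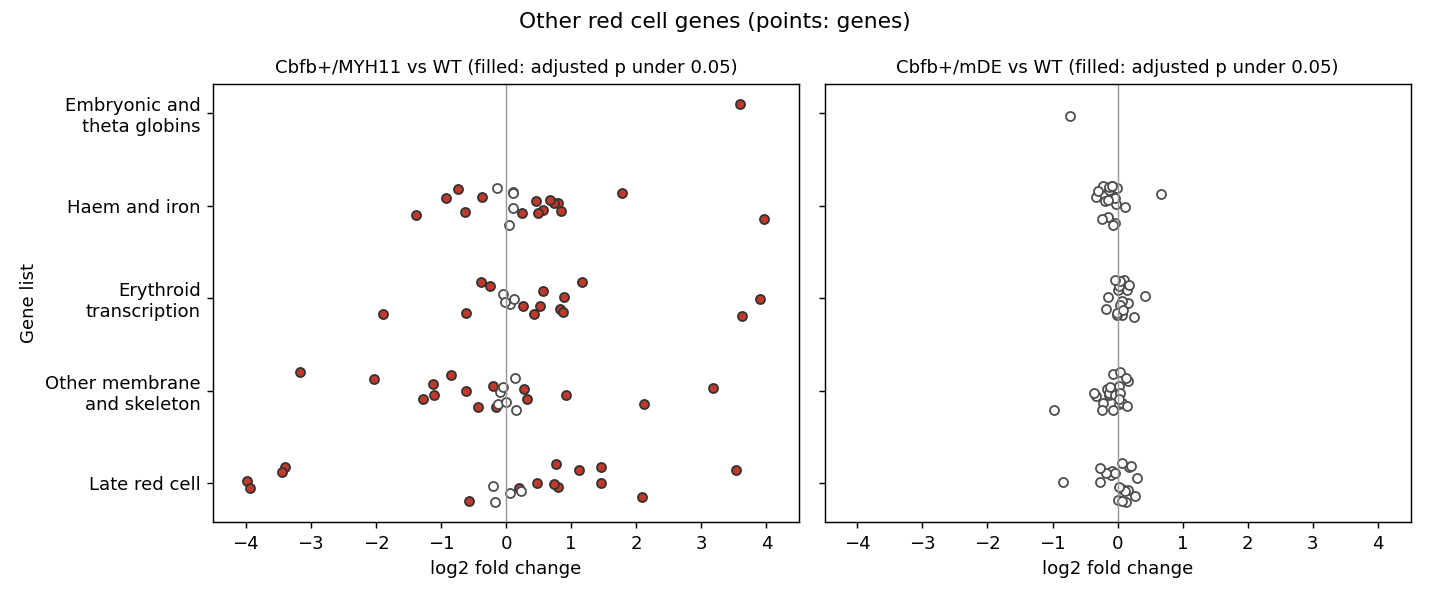
Log2 fold changes of the tested genes (points) of 5 lists of other red cell genes in Cbfb+/MYH11 against WT (left) and Cbfb+/mDE against WT (right); filled points have an adjusted p under 0.05. On the left each list but the globins holds genes called in both directions, on the right no point is filled.

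Reads of the whole set took 0.723%, 0.577% and 0.731% of the Cbfb+/MYH11 libraries, 0.534%, 0.431% and 0.329% of the Cbfb+/mDE libraries and 0.507%, 0.443% and 0.435% of the WT libraries. Without the globins the shares were 0.480%, 0.410% and 0.453% in Cbfb+/MYH11, 0.494%, 0.412% and 0.307% in Cbfb+/mDE and 0.478%, 0.423% and 0.405% in WT, and the genotypes overlapped.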

How the data were processed

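RNA of c-Kit-selected mouse bone marrow was measured in 9 libraries of 3 genotypes. The deposited table gives 1 normalised read signal per gene and library, which the authors made from gene counts divided by 1 size factor per library. Divided by the smallest step of its library, each deposited value gave a whole number to within 1e-06 of itself, and this held for 100% of values, so the read counts could be restored. The table's log2 fold change and p-value columns, deposited by the authors with no comparison named, were not used. CASAVA 1.8.2, STAR 2.4, RSEM, DESeq2 and GRCm38 are named, per the submitters' processing notes, and their roles are not given in the sources used here. No column of other samples was present.

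The default expression filter of edgeR 4.0.16 (filterByExpr), applied to the restored reads, left 15948 genes. limma-trend (limma 3.58.1, R 4.3.3) was fitted to log2(normalised value + 1) of all 9 libraries with genotype as the only term, with 6 residual and 3.2 prior degrees of freedom. Tests were two-sided; p-values were adjusted by Benjamini-Hochberg across these genes and called under 0.05. Fold changes on this scale understate those of low genes. Alternatives were other scalings, filters and pseudocounts, edgeR, DESeq2 (1.42.0) and limma-voom on the restored reads, fits of the compared genotypes only, a replicate block and leaving out each library. Intervals of 3 reads at 0 cover counting error only.

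The members and gene lists were chosen with earlier results of these data known. Values of every library are given for genes called at 2-fold or more in any comparison and for the globins, Epor, Tfrc and Slc4a1. From each list of other red cell genes up to 4 with the smallest adjusted p in Cbfb+/MYH11 against WT are named, with Gata1 and Klf1, except 2 genes that are not reported here; Add1, Tmod3 and the ratios were chosen after values were seen. Symbols were found for 42462 gene identifiers, coordinates are from GENCODE M21 (GRCm38) and promoters from RefSeq (GRCm38.p6).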

Additional observations from a re-analysis of the deposited data

How the results depend on the processing

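Of the 23 erythroid genes called between Cbfb+/MYH11 and WT, 18 stayed called in all 21 alternatives and none reversed; Epor, Cldn13, Epb42, Tspan33 and Slc25a37 missed 0.05 in at least 1. Of the 22 called between Cbfb+/MYH11 and Cbfb+/mDE, 20 stayed called in all, Rhd and Car2 being the exceptions. Leaving out 1 library at a time gave 10 to 12 higher and 8 to 14 lower genes for Cbfb+/MYH11 against WT, the 8 without WT replicate 1 or WT replicate 2, and 13 to 14 higher and 7 to 12 lower against Cbfb+/mDE, the 12 without Cbfb+/mDE replicate 3. For Cbfb+/mDE against WT the count was 0 in every alternative except the DESeq2 Wald test, which called 1 gene, a lower one; the cause was not tested. That test also called 944 genes over the whole table for this comparison, against 198 by limma-trend, and the other alternatives called between 31 (without WT replicate 2) and 257 (without Cbfb+/MYH11 replicate 2), with 38 without WT replicate 3. The sign of Slc4a1, never called, reversed in Cbfb+/MYH11 against WT to -0.07 without Cbfb+/MYH11 replicate 1 and to -0.11 without WT replicate 2, on fewer samples, and ranged up to 0.27 when other libraries were left out. With late neutrophil markers left out of the total, the WT share of the erythroid genes was 0.516% in place of 0.461%, by construction of the smaller total. Replicate numbers did not pair the libraries: correlations of same-numbered deviations ran between -0.15 and 0.12. In 2 of 9 comparisons, 3 for each pair of genotypes, a library correlated best with the same-numbered library of the other genotype. With the replicate block the counts were 12 higher and 13 lower for Cbfb+/MYH11 against WT, 0 for Cbfb+/mDE against WT, and 14 higher and 9 lower for Cbfb+/MYH11 against Cbfb+/mDE. No scaling moved the median of all genes by 0.1 on the log2 scale. With 3 libraries a genotype, small changes of genes that vary as in Cbfb+/mDE could go uncalled.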

Other observations

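Further genes of the lists of late red cell, membrane and haem genes are given here with their values; they were picked after these were seen. Pklr, the red cell and liver pyruvate kinase, averaged 277 ± 136 normalised reads in Cbfb+/MYH11, 3282 ± 1070 in Cbfb+/mDE and 3812 ± 131 in WT (SD, n = 3 each), and fell by 3.94 ± 0.40 on the log2 scale in Cbfb+/MYH11 against WT (limma adjusted p = 3.03e-05). Btnl10, a butyrophilin-like gene, fell by 3.99 ± 0.42 (3.66e-05), and Nxpe2 fell by 3.40 ± 0.29 (1.18e-05). Cd59a, which protects red cells from complement, rose by 3.18 ± 0.30 (2.04e-05), and averaged 2003 ± 417 normalised reads in Cbfb+/MYH11, 115 ± 40.9 in Cbfb+/mDE and 223 ± 63.2 in WT. Of the later enzymes of haem synthesis, Urod and Fech rose by 0.73 ± 0.13 (0.000960) and 0.84 ± 0.15 (0.00111), and Alad, which acts just after Alas2, fell by 0.74 ± 0.11 (0.000346).

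The ratio of Rhd to Rhag reads was 0.727, 0.846 and 0.907 in Cbfb+/MYH11, 1.04, 1.08 and 1.07 in Cbfb+/mDE and 0.981, 1.02 and 0.996 in WT, with no overlap between any pair of genotypes. The ratio of Slc25a37 to Slc25a38 reads was 2.68, 3.29 and 2.90 in Cbfb+/MYH11, 3.35, 3.20 and 3.73 in Cbfb+/mDE and 2.64, 2.54 and 2.93 in WT. Cbfb+/mDE lay above WT without overlap for this ratio, while Cbfb+/MYH11 overlapped both. Of the adult alpha globin reads, Hba-a2 took 9.66%, 8.47% and 8.93% in Cbfb+/MYH11, 7.81%, 8.57% and 11.5% in Cbfb+/mDE and 8.51%, 7.65% and 8.53% in WT, and all genotypes overlapped. The exact permutation test cannot go below 0.1 for these ratios.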
